A study of Mus musculus with 2 samples.

Results

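The 237 passage 20 cells with the most RNA, taken from 4749 cells kept of 4884 cell barcodes, were set against the middle of the same culture. They came from single-cell (sc)RNA-seq of cultured primary mouse brain pericytes (PCs), the mural cells that wrap brain capillaries. A cell was kept with more than 1000 genes and under 20% of its unique molecular identifiers (UMIs, 1 count per captured molecule) from mitochondrial genes. Members were the top 5% of kept cells by total UMIs, which is 4.99% of them. The contrast was the 2375 kept cells between the 25th and 75th percentile of total UMIs, called middle cells here. The passage 20 library (PC20) was 1 of 2 cultured libraries used, and the passage 5 library (PC5), with 9950 kept of 10629 barcodes, served for comparison. Both held untreated cells from female wild-type C57BL/6N mice aged 6 to 8 weeks, with brains of 6 mice pooled per isolation. The cells grew on collagen in endothelial growth medium for the first passages and then in Pericyte Medium. Each passage had 1 library and the cultures were independent, so passage and isolation cannot be told apart. With 1 library there is no replicate and no test: intervals are 95% intervals of counting error only.

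The amount of RNA in a cell rises as it grows towards division, so a dividing culture spans a wide range of RNA contents. Genes for G2 phase and mitosis, such as kinases, centromere proteins and the ubiquitin enzymes that end mitosis, are switched on together late in the cycle, after the histone and DNA replication genes of S phase. Ribosomal protein mRNAs are among the most abundant in any growing cell and are translated in the cytoplasm, whereas long noncoding RNAs such as *Malat1*, *Neat1* and *Xist* stay in the nucleus. Late cell cycle genes often carry 2 promoter elements, the cell cycle genes homology region (CHR), with the core letters TTTGAA or TTCGAA, and the CCAAT box.

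Members held between 88906 and 485943 UMIs, with a median of 108683 and quartiles of 96929 and 125542. Middle cells held 24251 to 49579, with a median of 33424, so the median member had 3.25 times the RNA counts of the median middle cell. These totals chose the members and are a description with no test. Members were 4.99% of the kept cells and held 15.0% of their UMIs. The 20 members nearest the threshold held 88906 to 91266 UMIs, and the 20 cells just outside it 86902 to 88848. Those 2 sets had a median of 7727.5 and 7595.5 genes per cell.

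More genes were seen per member, a median of 7987 against 5379 in middle cells. When every cell was thinned at random to 24000 UMIs the order turned, to a median of 4553 (quartiles 4232 and 4758) in members and 4632 (4436 and 4802) in middle cells. The 50 leading genes held 33.4% of member UMIs and 28.9% of middle UMIs. At equal depth, members therefore did not show more genes, and more of their UMIs lay in a few genes. Scrublet, which scores each barcode by its likeness to simulated pairs of cells, called 0 of 4749 cells, and its calls were not used. Its score had a median of 0.126 (quartiles 0.0848 and 0.168) in members and 0.0559 (0.0404 and 0.0768) in middle cells, and the part of droplets with more than 1 cell in the results was not tested. Of the barcodes, 2 members (0.844%) and 12 middle cells (0.505%) also occurred among the kept PC5 cells.

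For each gene the UMIs of a group were summed and scaled to 1000000 UMIs (CPM). Among 7493 genes with at least 10 CPM in either group, 46 were over 1.5-fold higher in members (0.614%) and 371 were over 1.5-fold lower (4.95%). The median gene lay at a log2 ratio of −0.17, members over middle, since CPM are shares and a few abundant genes took a larger share. Relative to the median gene the split was 149 higher (1.99%) and 89 lower (1.19%), so which direction holds more genes depends on this centring. All log2 ratios below are members over middle on the CPM scale, and −0.17 is the level of a gene that moved with the median.

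The genes furthest above the middle cells were largely those of G2 phase and mitosis. The 58 genes of the G2 and mitosis list took 0.644% of member UMIs and 0.509% of middle UMIs, a log2 ratio of 0.34 (0.33 to 0.35). Of the 58, 13 passed the 1.5-fold limit upwards and 0 downwards, against 0.614% and 4.95% of all genes counted, and 52 had a ratio above 0. Relative to the median gene, 26 were higher. *Cenpf*, a kinetochore and centromere protein made in G2, had the highest ratio among genes that passed the level and detection limits for naming. It stood at 333 CPM (327 to 340) in members and 152 CPM (149 to 155) in middle cells, a log2 ratio of 1.13 (1.10 to 1.17). *Cox6b2*, which was below that level limit, had a larger ratio. The median member had 122 CPM of *Cenpf* and the median middle cell 0, and after thinning 71.7% and 40.0% of cells held a UMI. A single cell gave 3.82% of the *Cenpf* UMIs of the members. *Ube2c*, the ubiquitin-conjugating enzyme of the anaphase-promoting complex, stood at 426 and 255 CPM (log2 0.74), with thinned shares of 91.6% and 76.3%. *Cenpa*, the centromeric histone H3 variant, stood at 207 and 126 CPM (log2 0.72). *Aurka*, the mitotic kinase at the spindle poles, reached 49.0 and 29.8 CPM (log2 0.72). *Nusap1* (78.1 and 47.1 CPM) and *Ckap2l* (55.1 and 33.1 CPM), both spindle proteins, had ratios of 0.73 and 0.74. *Hmgb2*, the chromatin protein with many UMIs in this list, moved less, with 460 and 394 CPM and a log2 ratio of 0.23.

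Other genes of the same stage lay among the largest ratios. *Fam83d*, a spindle protein, stood at 20.7 and 9.73 CPM (log2 1.09) and had a UMI in 31.2% of thinned members and 12.1% of thinned middle cells. *Cdc25b* and *Cdc25c*, phosphatases that switch on the mitotic kinase CDK1, were at 45.0 and 27.1 CPM and at 17.3 and 10.3 CPM, with ratios of 0.73 and 0.75. *Cep55*, needed for the final cut between daughter cells, had a ratio of 0.74. *H2afx*, the histone variant that marks broken DNA, stood at 97.0 and 57.2 CPM (log2 0.76).

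Promoter sequence shows what many of these genes share beyond their counts. Between 50 bases before and 50 after the start, 6.12% of the 27025 genes in the RefSeq table (GRCm38.p6) held TTTGAA or TTCGAA on either strand (the former read as TTCAAA on the other strand). In the G2 and mitosis list 31 of the 50 matched genes held one, which is 62.0%, and among those past 1.5-fold 6 of the 10 matched. CCAAT on either strand, searched from 250 before to 50 after, occurred in 41.1% of all genes, in 39 of the 50 (78.0%), and in 9 of the 10. A match is letters in a window and not a measured binding site. The 30 bases around the match are shown for 5 of the named genes of the list that hold one, each 5′ to 3′ on the strand of its gene, with the match in capitals.
Cenpf, chr1:189688067-189688096, minus strand: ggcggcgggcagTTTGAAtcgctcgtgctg
Ube2c, chr2:164769888-164769917, plus strand: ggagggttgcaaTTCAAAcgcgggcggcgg
Ckap2l, chr2:129297225-129297254, minus strand: ttattggcgaatTTCAAAgtcgcggaagcc
Cenpa, chr5:30666890-30666919, plus strand: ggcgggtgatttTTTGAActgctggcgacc
Aurka, chr2:172370521-172370550, minus strand: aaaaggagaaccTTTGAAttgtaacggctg

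*Nusap1* had no match in its window. The match began 29 bases before the start in *Ube2c* and 30 before it in *Ckap2l*, and lay after the start in *Cenpf*, *Cenpa* and *Aurka*.

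The higher share of these genes was not particular to the members. Kept PC20 cells were ordered by total UMIs and divided into 20 bins of 5%, of which the last is the members. The G2 and mitosis share did not simply rise with total UMIs. It was 0.605% in bin 1, the cells with the fewest UMIs, and lowest in bin 5 at 0.281%. It reached 0.699% in bin 14 (median 43565 UMIs), dipped to 0.552% in bin 17 (58624 UMIs), and was 0.739% in bin 19 (77799 UMIs), above the 0.644% of the members. The S phase share was 0.131% in bin 1 and also had more than 1 maximum above it. It was 0.156% in bin 12, 0.112% in bin 16, 0.146% in bin 17 and 0.106% in the members. The maxima in bins 12 and 17 each came a few bins before one of the G2 and mitosis list. Against that next 5% of cells, the list ratio was −0.19 and *Cenpf* stood at −0.04. In that contrast 2 of 7518 genes were over 1.5-fold higher (0.0266%) and 121 lower (1.61%).

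**Figure D1:**
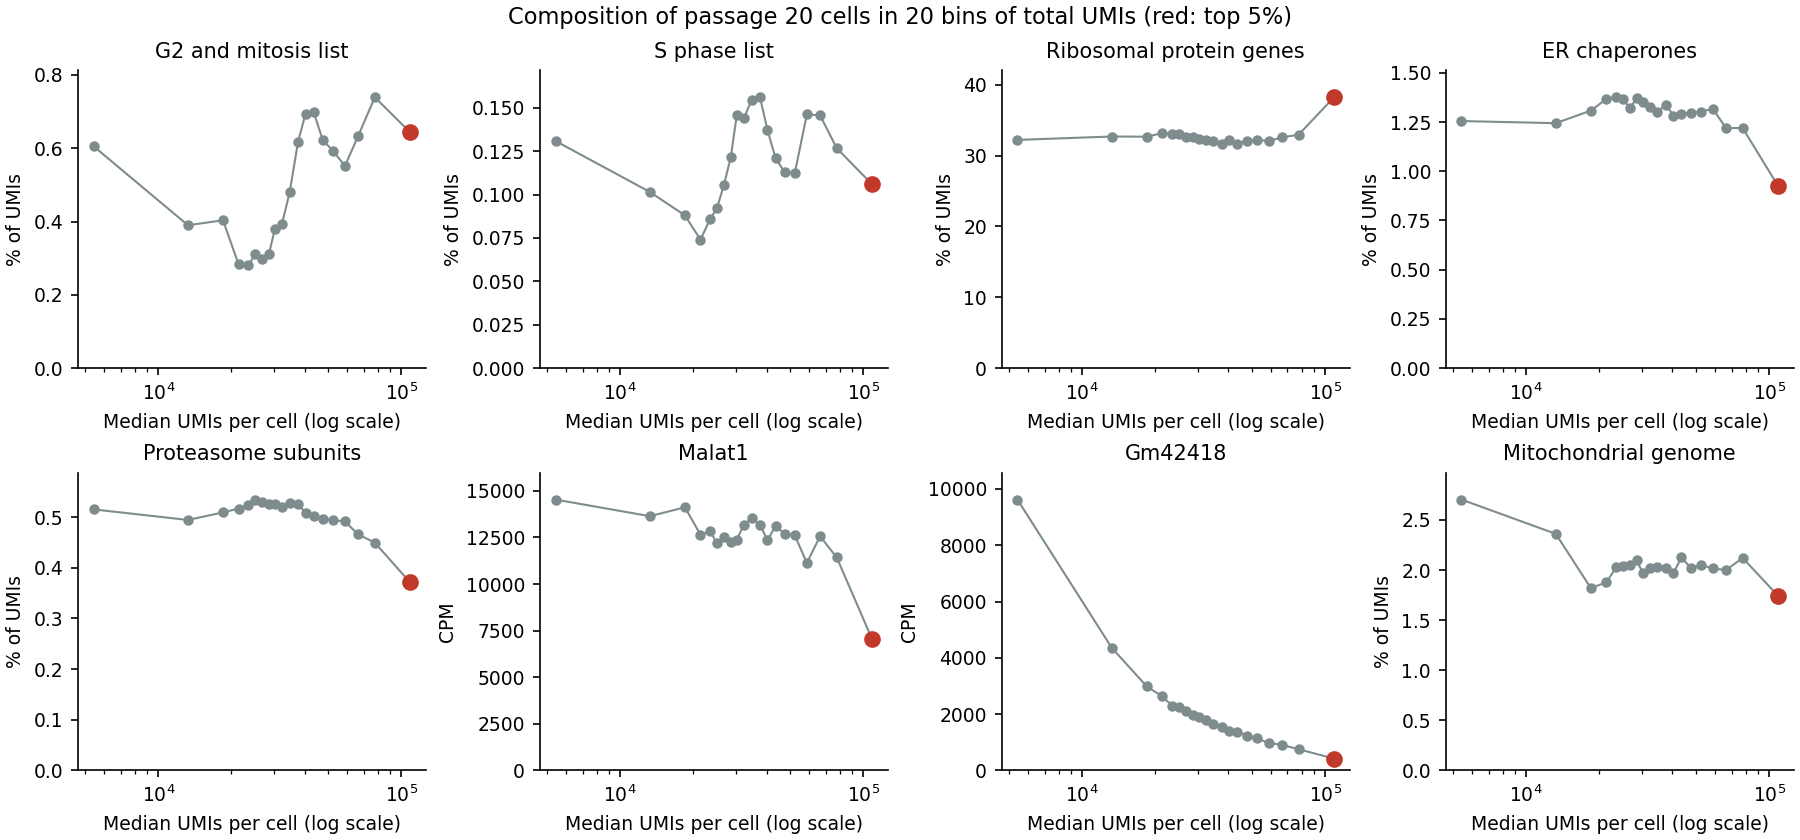
Each panel plots 1 quantity (share of UMIs in percent, or CPM) for 20 bins of kept PC20 cells ordered by total UMIs per cell, with the members in red. The G2 and mitosis share was higher in bin 19 (0.739%) than among the members (0.644%), while the last bin stood apart from bins 2 to 19 in ribosomal proteins (38.2%) and *Malat1* (7052 CPM).

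S phase genes went the other way. Their 43-gene list took 0.106% of member UMIs and 0.130% of middle UMIs (log2 −0.29), with 1 gene past the limit upwards and 7 downwards of 34 counted (background 0.614 and 4.95%), and it stayed below the median gene (−0.12 after centring). *Mcm6*, a subunit of the replicative helicase, stood at 23.1 and 42.5 CPM (log2 −0.88), *Mcm4* of the same complex at −0.69, and *Nasp*, a histone chaperone, at 33.2 and 54.9 CPM (log2 −0.73). The exception was *E2f8*, a repressor that closes the S phase programme, at 16.9 and 10.9 CPM (log2 0.63).

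Of 14 clustered histone genes counted, which are mostly transcribed in S phase, 0 were higher past the limit and 8 lower (background 0.614 and 4.95%). Their sum had a log2 ratio of −0.41. Per cell, the share of the list had a median of 0.0477% (quartiles 0.0273 and 0.0887%) in members and 0.0345% (0.0163 and 0.114%) in middle cells. The medians per cell thus had the opposite order to the sums, and no order is read for the list. Clustered histone mRNAs mostly lack a poly(A) tail, so a poly(A) method sees a part of them. *Hist1h4d* was at 21.7 and 42.5 CPM (log2 −0.97), *Hist1h3c* at 5.33 and 12.7 CPM (log2 −1.25) and *Hist1h2ab* at 3.76 and 10.0 CPM (log2 −1.42). The most abundant of those named, *Hist1h2ap*, stood at 177 and 162 CPM (log2 0.13).

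Cell by cell, proliferation genes were seen in more members than middle cells. After thinning, 216 of 237 members (91.1%, 86.8 to 94.4%) and 1642 middle cells (69.1%, 67.2 to 71.0%) held a UMI of *Mki67* or *Top2a*, proliferation genes on from S phase to mitosis. The unthinned shares were 97.5% and 73.0%. For scale, among 17 markers of microglia, oligodendrocytes and neurons, cells a pericyte culture should lack, the highest thinned share was 11.0% in members (*Mbp*) and 9.73% in middle cells (*Tubb3*), and most of the 17 were at or near 0. The G2 and mitosis share of a cell had a median of 0.473% (quartiles 0.253 and 0.949%) in members and 0.239% (0.143 and 0.601%) in middle cells, so the groups overlapped widely, and 41 members (17.3%) lay above the 90th percentile of the middle cells. Cells above the middle medians for both that list and the S phase list were 107 members (45.1%) and 41.9% of middle cells, the largest class of the members. Cells above the median for the G2 and mitosis list alone were 75 members (31.6%) and 193 middle cells (8.13%). The reverse pattern was found in 2 members (0.844%) and 8.13% of middle cells. A further 53 members (22.4%) lay below both medians, against 41.9% of middle cells.

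Cytosolic ribosomal proteins were the largest block of RNA that took a greater share in the members. The list held 38.2% of member UMIs and 32.2% of middle UMIs, a log2 ratio of 0.25, and it was 0.42 above the median gene. Single genes moved little: of 82 counted, 0 were higher past 1.5-fold and 1 lower, 70 had a ratio above 0, and 11 passed the limit relative to the median gene. *Rps20* had 12153 CPM in members and 9061 in middle cells (log2 0.42). *Rpl37a* had 3986 and 2864 CPM (log2 0.48), while *Rpl5*, part of the 5S particle, stood apart at 1051 and 1585 CPM (log2 −0.59). Per cell the ribosomal protein share had a median of 37.0% (quartiles 33.6 and 41.2%) in members and 32.0% (29.7 and 34.5%) in middle cells, and 107 members (45.1%) exceeded the 90th percentile of the middle cells. In absolute terms a member carried 46313 ribosomal protein UMIs on average and a middle cell 11134.

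Unlike the mitotic genes, ribosomal proteins changed mainly among the members, where their share rose with total UMIs. It was 32.9% in bin 19 and 34.8% in the 59 members with the fewest UMIs. The next sets of members held 36.7 and 37.5%, and the 60 with the most UMIs 41.4%. Bins 2 to 19 held between 31.7 and 33.2%, and the members 38.2%, with a ratio of 0.21 against the next 5% of cells. The factors that assemble and use ribosomes are given beside them, against backgrounds of 0.614% higher and 4.95% lower. Nucleolar and ribosome assembly genes had 0 higher and 4 lower of 29 counted, with *Nop56*, a core protein of small nucleolar RNPs, at 60.4 and 104.7 CPM (log2 −0.79) and *Ebna1bp2* at −0.74. Their summed share had a ratio of −0.19, near the −0.17 of the median gene, while the median over the 29 genes was −0.40. The sum mostly reflects *Npm1*, the most abundant of them, at 3632 and 3726 CPM (log2 −0.04). All 29 had a ratio below 0, and 6 lay above the median gene. Among 20 translation factors, too few to read a count of 0 against so small a background, 0 were higher and 2 lower, *Eif4a1*, the cap-complex helicase, at 186 and 328 CPM (log2 −0.82) and *Eif2s1*, the alpha subunit of eIF2, at −0.61. Across all counted genes the log2 ratio had a rank correlation of −0.14 with transcript length and 0.30 with GC content, a description across genes, which are not replicates.

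**Figure D2:**
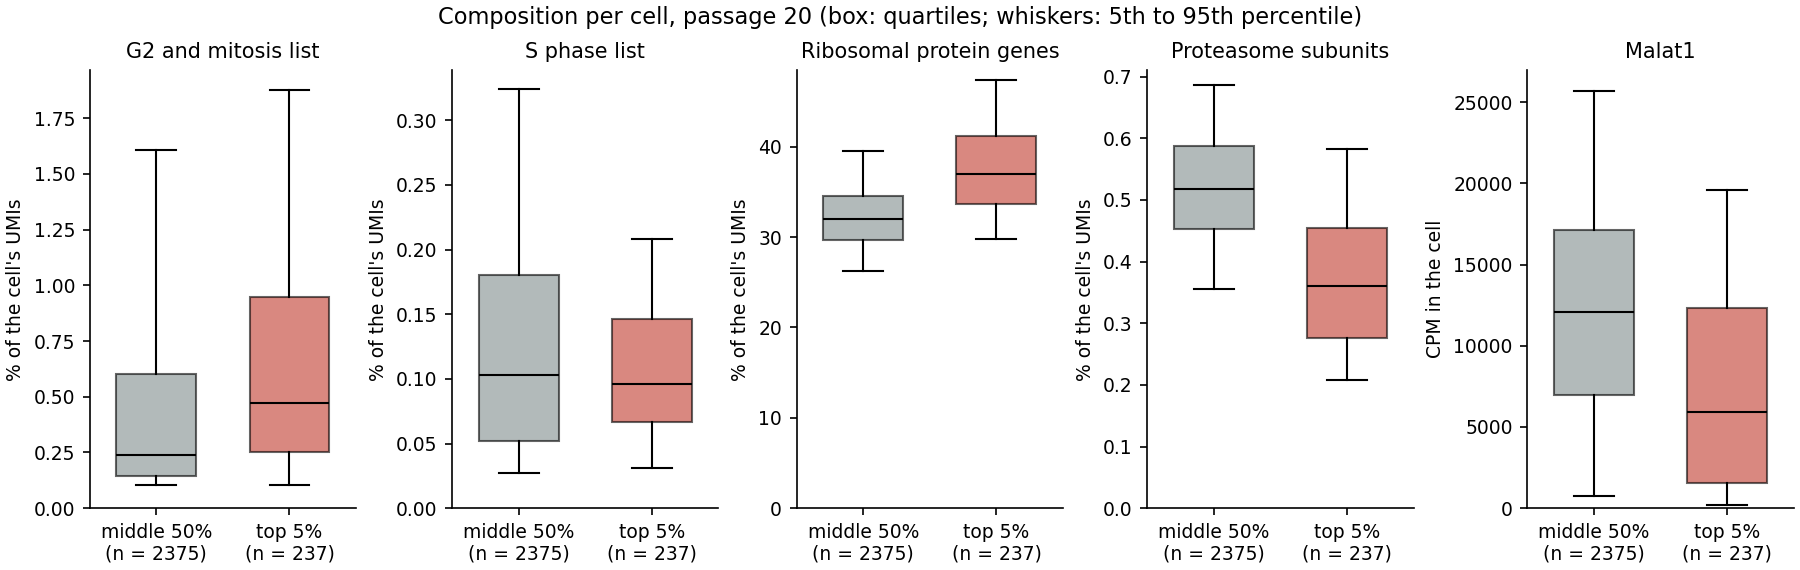
Box plots of per-cell values in 2375 middle cells and 237 members, with the box at the quartiles, the line at the median and whiskers from the 5th to the 95th percentile. Quantities are shares of UMIs in percent, and CPM for *Malat1*. The boxes overlap for the G2 and mitosis list (medians 0.239 and 0.473%), and for ribosomal proteins the medians are 32.0 and 37.0%.

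Nuclear noncoding RNAs took a smaller share. Of 5 long noncoding RNAs counted, 0 were higher and 4 lower (background 0.614 and 4.95%). The list took 0.826% of member UMIs and 1.45% of middle UMIs (log2 −0.82). *Malat1*, an RNA of nuclear speckles, stood at 7052 and 12792 CPM (log2 −0.86). *Neat1*, the scaffold of paraspeckles, stood at 253 (248 to 259) and 521 (516 to 526) CPM, with a log2 ratio of −1.04. *Kcnq1ot1*, an imprinted antisense RNA, was at 84.2 and 136 CPM (log2 −0.69). *Xist*, which coats the inactive X chromosome, was at 433 and 684 CPM (log2 −0.66). *Snhg12*, a spliced host gene of small nucleolar RNAs, was at 435 and 411 CPM (log2 0.08). Members still held more UMIs of each per cell, having been chosen for their totals: 855 *Malat1* UMIs per member and 443 per middle cell, 30.7 and 18.0 for *Neat1*, and 52.5 and 23.7 for *Xist*. *Tsix*, the antisense partner of *Xist*, stood at 6.44 and 20.6 CPM (log2 −1.68). It overlaps *Xist* on the opposite strand (X:103431517-103484957 and X:103460366-103483254, GRCm38), and whether their reads were told apart by strand is not given in the sources used here.

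A few RNAs differed more in share than the long noncoding RNAs and were not more numerous per cell in members. *Gm42418* and *AY036118*, 2 transcripts named after their values were seen, overlap on opposite strands (17:39846958-39848788 and 17:39847113-39848035, GRCm38) and lie in a copy of the ribosomal RNA precursor. *Gm42418* stood at 418 CPM in members and 1652 in middle cells (log2 −1.98), which is 50.7 UMIs per member and 57.2 per middle cell. *AY036118* stood at 17.3 and 184 CPM (log2 −3.41), or 2.10 and 6.38 UMIs per cell. *Lars2*, the mitochondrial leucyl-tRNA synthetase (9:123366927-123462666, plus strand), was at 9.33 and 45.7 CPM (log2 −2.29), or 1.13 and 1.58 UMIs per cell. These ran down the whole range: *Gm42418* had 9624 CPM in bin 1, 4356 in bin 2, 750 in bin 19 and 418 in the members, and *Lars2* had 639 in bin 1 and 15.6 in bin 19.

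The 13 protein-coding genes of the mitochondrial genome took 1.74% of member UMIs and 2.04% of middle UMIs (log2 −0.22). Of them, 0 were higher and 4 lower past the limit (background 0.614 and 4.95%). *mt-Nd6*, a complex I subunit, stood at 65.5 and 132 CPM (log2 −1.01), and *mt-Atp8*, an ATP synthase subunit, at 51.6 and 100.3 CPM (log2 −0.96). Nuclear genes of the respiratory chain had a list ratio of 0.02, a value whose sign changed in 6 of 13 alternative settings, with 1 higher and 4 lower of 86 counted, close to the background of 0.614 and 4.95%, so the list as a whole did not stand apart and single genes are given as values. *Ndufa9*, a complex I subunit, was at 21.8 and 43.3 CPM (log2 −0.99), *Ndufs1* of the same complex at −0.73 and *Sdhb* of complex II at −0.61. *Cox6b2*, an isoform of a complex IV subunit best known from testis, was higher at 12.5 and 5.61 CPM (log2 1.15). *Mrps22*, of the small mitochondrial ribosomal subunit, stood at 19.6 and 37.1 CPM (log2 −0.92).

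Protein quality control genes were lower together. All 37 proteasome subunits counted had a ratio below 0, 12 were lower past 1.5-fold and 0 higher (background 4.95 and 0.614%), and 1 lay above the median gene. The list took 0.371% of member UMIs and 0.517% of middle UMIs (log2 −0.48). The ATPase subunits of the cap, which unfold substrates, were among the lowest: *Psmc5* at 48.9 and 87.7 CPM and *Psmc4* at 29.2 and 52.4 CPM both had a ratio of −0.84, and *Psmc2* had −0.83. In the catalytic core *Psmb4* had a ratio of −0.81, whereas *Psma3* of its outer ring was at 280 and 365 CPM (log2 −0.38). The share was already lower below the threshold, with 0.492% in bin 17 and 0.450% in bin 19. Of the members, 140 (59.1%) lay below the 10th percentile of the middle cells for the proteasome share. The number per cell was still larger in members, with 5.93 and 3.03 UMIs for *Psmc5* and 450 and 179 for the whole list.

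Chaperones of the endoplasmic reticulum showed the same order. Of 20 counted, 3 were lower and 0 higher (background 4.95 and 0.614%). The list took 0.927% of member UMIs and 1.32% of middle UMIs (log2 −0.51). *Hspa5*, the main ER chaperone BiP, stood at 2021 and 3498 CPM (log2 −0.79), *Pdia6*, a disulphide isomerase, at 409 and 690 CPM (log2 −0.76), and *Sdf2l1*, a BiP partner, at 119 and 199 CPM (log2 −0.74). *P4hb*, another disulphide isomerase and a subunit of collagen prolyl hydroxylase, was at 414 and 366 CPM (log2 0.18). In the cytosol, 3 of 20 chaperones were lower and 0 higher (background 4.95 and 0.614%). Their summed share had a ratio of −0.18, near the −0.17 of the median gene, while the median over the 20 genes was −0.35. The 3 were all subunits of the chaperonin CCT that folds actin and tubulin: *Cct3* at 80.4 and 143 CPM (log2 −0.83), *Cct8* at −0.80 and *Cct5* at −0.59. *Hsp90ab1*, the abundant cytosolic HSP90, was at 3271 and 3120 CPM (log2 0.07). Against the next 5% of cells the proteasome list stood at −0.28, the ER list at −0.40 and the long noncoding RNA list at −0.66, so these 3 differences, like that of the ribosomal proteins, were present between neighbouring bins.

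Amino acid and energy genes differed less as lists, with counts to be read against the background of 4.95% lower. Of 24 targets of the stress factor ATF4, 2 were lower and 0 higher (list ratio −0.26), *Asns*, asparagine synthetase, at 164 and 293 CPM (log2 −0.83) and *Phgdh*, the entry enzyme of serine synthesis, at 320 and 481 CPM (log2 −0.59). Outside the list, *Cth*, which makes cysteine, stood at 35.9 and 71.2 CPM (log2 −0.99) and *Rars*, the arginyl-tRNA synthetase, at 111 and 217 CPM (log2 −0.97). In glycolysis 1 of 16 was lower, near the background, the phosphofructokinase *Pfkp* at 101 and 175 CPM (log2 −0.80). Of 18 hypoxia genes and 22 genes of sterol and fatty acid synthesis, 0 passed the limit, with list ratios of −0.30 and −0.21. Splicing factors had 0 higher and 4 lower of 67, also near the background. *Ppid*, a cyclophilin that works with HSP90, was named by its size of change, at 49.4 and 95.3 CPM (log2 −0.95), as was *Ttc21b*, a cilium transport protein, at −0.92.

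Of 12 inflammatory and interferon genes counted, 2 were lower and 0 higher (background 4.95 and 0.614%), and the list ratio was −0.27. Per cell, the share of the list had a median of 0.0762% in members and 0.0727% in middle cells. Sum and median thus had opposite orders, and no order is read for the list. *Ifit3*, an interferon-induced antiviral protein, was at 50.7 and 92.8 CPM (log2 −0.87), and *Samd9l*, another interferon-induced gene, at 44.2 and 84.9 CPM (log2 −0.94). *Cxcl10*, an interferon-induced chemokine, stood at 38.9 and 95.02 CPM (log2 −1.29), but a UMI was found in 26.2% of thinned members and 15.2% of thinned middle cells. Share and level thus had opposite orders and no order is read for *Cxcl10*, and 1 cell held 8.06% of its member UMIs.

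Among genes higher in members that belong to no cell cycle list, *Mt3*, a zinc- and copper-binding metallothionein, was at 93.1 and 55.8 CPM (log2 0.74). It was the one of them still as far apart from the next 5% of cells, at 0.73. A single cell gave 8.07% of the *Mt3* UMIs of the members. *S100a13*, a calcium-binding protein, stood at 34.1 and 19.2 CPM (log2 0.83), but it was higher still in bin 2, at 40.7 CPM, among cells with few UMIs. *Mxd4*, a MAX partner that opposes MYC, was at 20.5 and 11.9 CPM (log2 0.79), *Zbtb8b*, a zinc finger protein, at 29.8 and 17.7 CPM (log2 0.75), and *Rnf26*, a ubiquitin ligase of the ER, at 22.5 and 13.7 CPM (log2 0.71). In PC5 the ratios were −0.05 for *S100a13*, −0.39 for *Mxd4* and 0.38 for *Rnf26*. *Mt3* and *Zbtb8b* were under 10 CPM in both groups of PC5.

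Pericyte markers were too low to be counted in either group. *Rgs5*, *Kcnj8* and *Abcc9* had 0 UMIs in both groups, and 0 of 237 cells, taken as under 3 counts, allows a share of cells with a UMI of up to 1.27%, which does not limit the share of cells expressing the gene. *Pdgfrb*, the receptor that recruits pericytes to vessels, stood at 5.40 CPM in members and 5.27 in middle cells, with a UMI in 11.8 and 10.9% of thinned cells, beside 11.0 and 9.73% for the highest of the markers the culture should lack. *Anpep*, a surface peptidase, stood at 3.03 and 2.87 CPM, and like *Pdgfrb* had a ratio whose interval includes 0. *Cspg4* had 1 UMI in members and 9 in middle cells (log2 −1.65, −7.11 to 1.20). *Mcam* was at 0.522 and 0.389 CPM (log2 0.42, −0.57 to 1.35), with a UMI in 0.422 and 1.09% of thinned cells. Ratios were positive for *Notch3* (2.16 and 1.27 CPM, log2 0.77, 0.29 to 1.24), *Des* (1.46 and 0.742 CPM, log2 0.98, 0.38 to 1.57) and *Cd248* (1.74 and 1.17 CPM, log2 0.58, 0.05 to 1.08), markers of mural cells with few UMIs. A UMI of *Notch3* was found in 7.17 and 2.61% of thinned cells, below the highest background marker. For *Cd248* the thinned shares were 4.22 and 2.32%, and for *Des* they were alike, 1.27 and 1.26%. The 10 markers together took 0.00143 and 0.00118% of UMIs (log2 0.28, 0.11 to 0.45). The labelled cell type therefore had its defining markers at or near 0 in both groups. *Acta2*, smooth muscle actin, was at 48.2 and 43.0 CPM, *Flt1*, an endothelial VEGF receptor, at 67.2 and 73.9 CPM, and *Slc4a4*, the astrocyte-list bicarbonate transporter, at 217 and 229 CPM. These were the most abundant genes of their lists. The other smooth muscle markers ranged from 1 UMI (*Myh11*) to 443 (*Smtn*) in the members. Of the other endothelial markers, *Pecam1* had 5 UMIs there, *Cldn5* 3, *Kdr* 1, and *Cdh5*, *Tek* and *Emcn* 0. Of the other astrocyte markers, *Slc1a3* had 103, *Aldh1l1* and *Aqp4* 1 each, and *Gfap* 0. *Ptprc*, *Tyrobp*, *Aif1*, *Adgre1* and *Cd48*, of leukocytes and microglia, had 0 UMIs in the members.

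Matrix and cytoskeletal lists differed little. Collagen genes had a list ratio of −0.03 with 0 of 10 past the limit, and actin and contractile genes −0.02 with 0 of 29, and both turned positive relative to the median gene. Intermediate filament and tubulin genes stood at 0.15, with *Vim*, vimentin, at 4405 and 3677 CPM (log2 0.26). *Fth1*, the iron storage protein ferritin heavy chain, was at 12953 and 9483 CPM (log2 0.45).

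**Figure D3:**
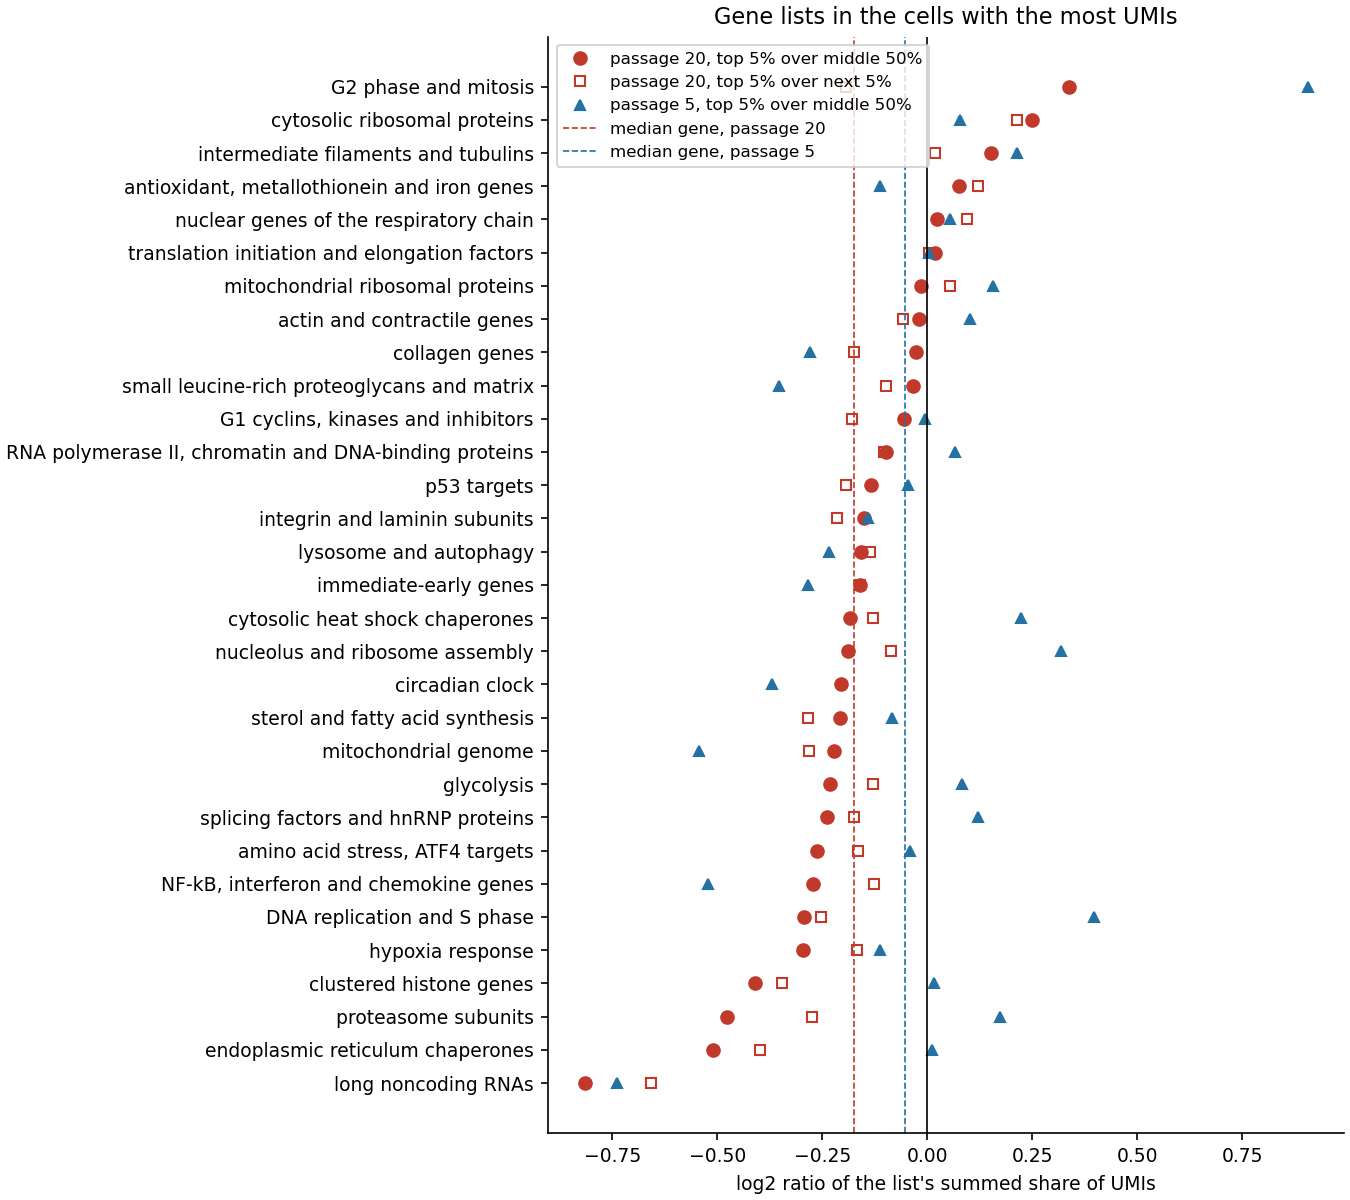
Log2 ratio of the summed UMI share of each gene list (horizontal axis) for PC20 members over middle cells, PC20 members over the next 5% of cells and PC5 members over middle cells, with dashed lines at the median genes. The G2 and mitosis list is positive against middle cells in both passages (0.34 and 0.91) but negative against the next 5% (−0.19). The long noncoding RNA list is low in all 3 comparisons (−0.82, −0.66 and −0.74).

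The members were not uniform, and their largest cells differed from the rest. The 60 members with the most UMIs (125542 to 485943) held 41.4% ribosomal protein UMIs, 1.15% mitochondrial UMIs, 4311 CPM of *Malat1* and 0.527% of the G2 and mitosis list. The 59 with the fewest (88906 to 96772) held 34.8%, 1.96%, 9723 CPM and 0.735%. Thinned gene numbers had a median of 4235.5 and 4673. The ribosomal protein share was thus greater, and the mitotic share smaller, at the upper end of the members.

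Members with and without proliferation genes had like ribosomal protein shares. The 21 members with no *Mki67* or *Top2a* UMI after thinning held 39.4% ribosomal protein UMIs, 9563 CPM of *Malat1* and 0.118% of the G2 and mitosis list, and the 216 others 38.1%, 6843 CPM and 0.687%. The 733 middle cells without either gene held 33.0%, 13734 CPM and 0.144%, so among cells without these UMIs, too, members were above middle cells in ribosomal protein share and below them in *Malat1*. *Cdkn1a*, the p21 inhibitor of cell cycle kinases, was at 225 CPM in the members and ranged from 120 to 283 CPM over the 20 bins.

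A set of members had almost no mitochondrial UMIs. Under 0.5%, a limit chosen after the values were seen, lay 36 of 237 members (15.2%, 10.9 to 20.4%) and 195 of 2375 middle cells (8.21%, 7.14 to 9.39%). Of these members 29 lay under 0.3%, and 15 members lay near the limit, between 0.3 and 0.75%. Along the 20 bins the share of such cells fell from 19.3% in bin 1 to 5.06% in bin 19 and was 15.2% in bin 20. They made up 9 of the 10 cells with the most UMIs, 15 of the highest 20, 22 of the highest 60 and 6 of the lowest 59 members. Their median was 147722 UMIs, against 106724 in the other members.

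The same cells were low in nuclear RNA. *Malat1* had a per-cell median of 296 CPM (quartiles 119 and 1259) in them and 7715 CPM (2456 and 13245) in the other members. Summed values were 35.2 and 314 CPM for *Neat1*, 79.4 and 531 CPM for *Xist*, and 8.33 and 105 CPM for *Kcnq1ot1*. Several other RNAs were close: *Actb* stood at 2625 and 2554 CPM, *Hprt*, a purine salvage enzyme, at 70.1 and 76.3 CPM, and *Snhg12* at 446 and 432 CPM. Ribosomal proteins took 43.7 and 36.7%, and *Gapdh*, of glycolysis, 3385 and 2585 CPM. ER chaperone mRNAs took 0.621 and 1.01%, and the G2 and mitosis list 0.467 and 0.693%. *S100a13* stood at 60.2 and 26.8 CPM and *Acta2* at 85.7 and 37.8 CPM. At equal depth these cells showed a median of 3978 genes and the others 4591. Of 7295 genes counted, 47 were higher in them (0.644%) and 2161 lower (29.6%), with the median gene at −0.33. Because the limit was set on mitochondrial UMIs of the same cells, these values are a description.

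**Figure D4:**
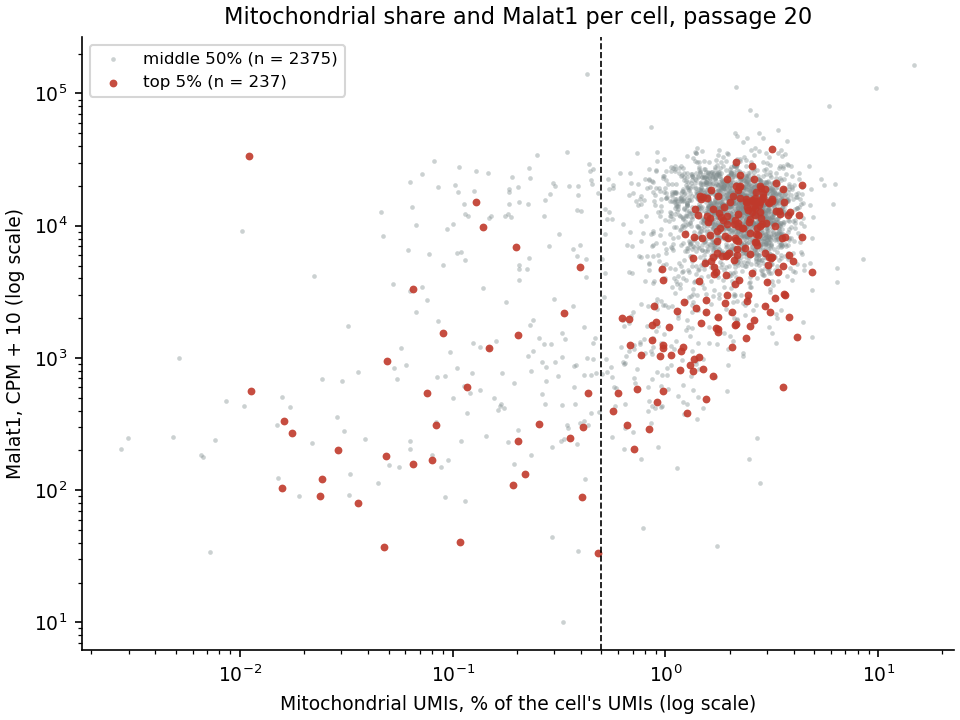
Each point is a PC20 cell, with the percent of its UMIs from mitochondrial genes on the horizontal axis and *Malat1* CPM plus 10 on the vertical axis, both on log scales. The dashed line marks 0.5%. Members left of it had a median of 296 CPM and members right of it 7715 CPM.

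Middle cells under the same limit showed the same order, with a *Malat1* median of 1175 and 12521 CPM and ribosomal protein shares of 36.6 and 31.8%. When cells under 0.5% were left out of both groups, an alternative chosen after seeing the data, 76 genes were higher (1.01%) and 244 lower (3.24%) of 7541. The list ratios were then 0.45 for G2 and mitosis, 0.21 for ribosomal proteins, −0.62 for long noncoding RNAs, −0.41 for ER chaperones and −0.50 for the proteasome. The mitochondrial list moved from −0.22 to −0.01. The differences of the first 5 lists from middle cells were thus also measured without these cells. The contrast with the next 5% of cells was not repeated without them.

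The top 5% of PC5, chosen by the same rule in its own library, gave a comparison. Its 498 cells held 39440 to 96888 UMIs with a median of 42886, 1.98 times that of its 4975 middle cells. Of 7696 genes counted, 172 were higher (2.23%) and 237 lower (3.08%), with the median gene at −0.05. Thinned to 15500 UMIs, genes per cell had medians of 3698 and 3744.

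The mitotic difference was larger at passage 5. The G2 and mitosis list took 0.415 and 0.221% of UMIs (log2 0.91), with 46 of 56 counted genes past the limit upwards, and *Cenpf* had a ratio of 1.34 and *Ube2c* 1.69. *Mki67* or *Top2a* was found in 68.9% (64.6 to 72.9%) of thinned top cells and 36.7% (35.4 to 38.1%) of middle cells. The S phase list stood at 0.40, with 6 higher of 26, where PC20 had −0.29. Long noncoding RNAs had a ratio of −0.74, with 5 of 7 lower, close in size to the −0.82 of PC20. The difference between passages was not tested, as each has 1 library.

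In PC5 the ribosomal protein, proteasome and ER chaperone lists had ratios smaller than in PC20 or of the other sign. The ribosomal protein list had a ratio of 0.08 and held 35.0% in bin 19 and 34.9% in bin 20, the proteasome list stood at 0.17 with 0 of 36 past the limit, and the ER list at 0.01. *Asns* and *Phgdh* had ratios of 0.46 and 0.47 in PC5, and −0.83 and −0.59 in PC20. Mitochondrial genes stood at −0.54 in PC5 with 5 of them lower. Cells under 0.5% mitochondrial UMIs made up 55 of 498 top cells (11.0%) and 345 of 4975 middle cells (6.93%), with a *Malat1* median of 60.0 CPM in those top cells and 3219 CPM in the other top cells.

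Of 6623 genes counted in both passages, 39 were higher in the PC20 members, and 26 of these (66.7%, or 16.0% of the 162 of PC5) were also higher at PC5, where 2.45% of the 6623 were. Of 268 lower genes, 25 (9.33%, or 21.6% of the 116 of PC5) were also lower at PC5, where 1.75% were. Across these genes the 2 log2 ratios had a Pearson's r of 0.308 and a Spearman's rho of 0.190, as a description over genes that share their cells. At the 1.5-fold limit, most genes higher at the top of PC20 were thus also higher at the top of PC5, and most lower genes were not past it. A PC5 ratio below 0 was found for 153 of the 268. Their PC5 median of −0.05 was that of the median gene of PC5 (−0.05), so as a set they did not stand apart there.

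**Figure D5:**
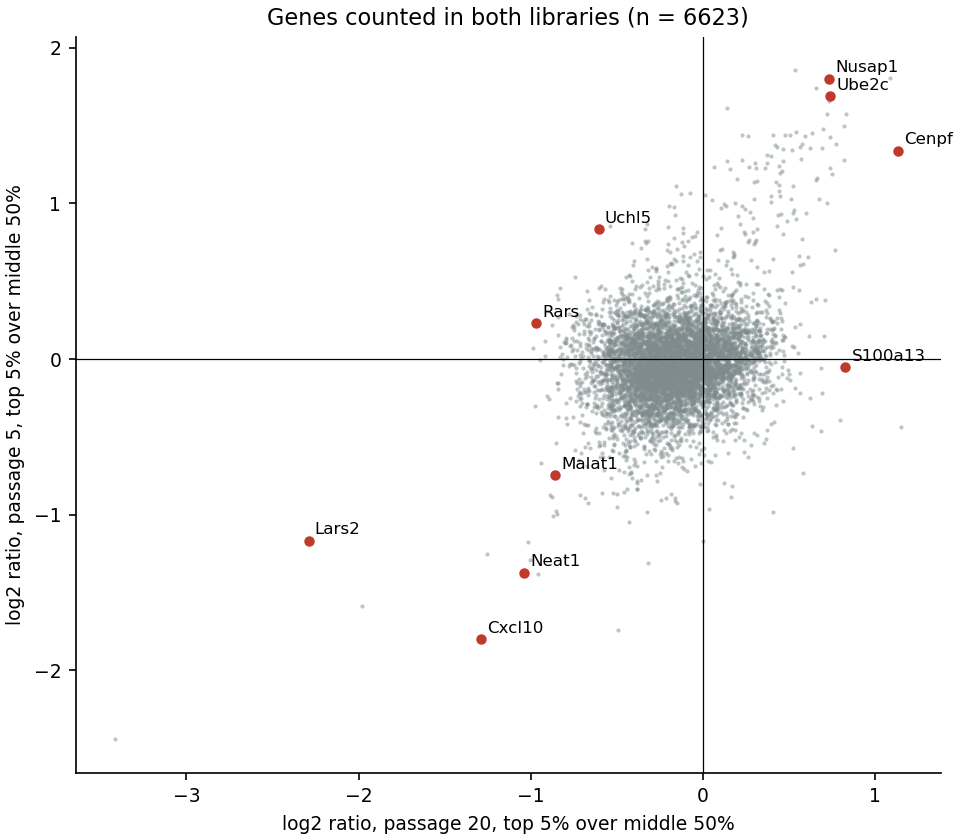
Each point is 1 of 6623 genes, with the log2 ratio of members over middle cells in PC20 on the horizontal axis and the same ratio in PC5 on the vertical axis. Of the 39 genes past 1.5-fold higher in PC20, 26 are past it in PC5, and of 268 lower genes 25 are. The rank correlation was 0.190.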

How the data were processed

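Passage 5 and passage 20 mouse brain PCs were profiled by droplet scRNA-seq with 3′ chemistry (10x Genomics). Per the paper's methods and the file headers, the authors aligned reads to mm10 with Cell Ranger 5.0, and the deposited matrices hold UMI counts for 31053 genes, with no normalization. PC20 held 191306354 UMIs and PC5 223978480. The filter on cells (over 1000 genes, under 20% mitochondrial UMIs) followed the study. UMIs of a group were summed and given as CPM, and log2 ratios carry no pseudocount. Intervals are exact (Poisson for CPM, conditional binomial for ratios, Clopper-Pearson for shares of cells, 95%) and cover counting error only. A gene was counted with at least 10 CPM in either group, and the limit was 1.5-fold. For shares and genes per cell, each cell was thinned without replacement to 24000 UMIs (15500 in PC5). Doublets were not removed, as Scrublet in scanpy 1.11.5 called none.

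Named genes were the 15 highest and 15 lowest log2 ratios over genes that reached 20 CPM and were seen in 10% of thinned cells of the group where they were higher, leaving out pseudogenes and unnamed models. To these were added up to 5 genes of each described list, those with the most UMIs or the largest ratio, and the pericyte markers. *Gm42418*, *AY036118*, *Cdkn1a*, *Uchl5* and the genes given for cells low in mitochondrial UMIs were chosen after their values were seen. The members and the gene lists were chosen with earlier results of these data known. Promoters came from RefSeq (GRCm38.p6) and gene positions from GENCODE on GRCm38. Other thresholds, contrasts, cell sets, scalings and thinning depths were tried. Scripts were tested on simulated counts and used Python 3.11.15, numpy 2.4.6, scipy 1.17.1 and pandas 2.3.3.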

Additional observations from a re-analysis of the deposited data

Results flagged for a closer look

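Values with opposite signs in the 2 passages are given here, for genes past 1.5-fold in both and for lists with at least 5 counted genes and a ratio of at least 0.1 in size, relative to the median gene, in both. Lists with opposite signs but a smaller ratio in 1 passage, such as ER chaperones (−0.34 and 0.06) and clustered histones (−0.23 and 0.07), are left out. None of these differences was tested, since each passage has 1 library. *Uchl5*, a deubiquitinase that binds the proteasome, had a log2 ratio of members over middle cells of −0.607 at passage 20 (47.4 and 72.1 CPM) and of 0.84 at passage 5 (27.3 and 15.3 CPM), and was the only gene of the 6623 past 1.5-fold in opposite directions. Relative to the median gene of its own passage, the S phase list stood at −0.120 at passage 20 and 0.45 at passage 5. The proteasome list stood at −0.304 and 0.23 on the same scale. The collagen list stood at 0.147 and −0.23, and the list of proteoglycans and other matrix genes at 0.139 and −0.30.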

How the results depend on the processing

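Against the main 46 higher and 371 lower genes, counts of higher genes were 128 for the top 1% of cells, 19 against all other kept cells, 2 against the next 5%, 179 in cells with no *Mki67* or *Top2a*, 85 with the mean of per-cell CPM, 136 with library sizes that left out mitochondrial and ribosomal protein genes, 102 from thinned cells, 149 centred on the median gene, 194 and 14 with minima of 1 and 50 CPM, 279 with a lower fold limit and 4 with a fold of 2, and 76 without cells under 0.5% mitochondrial UMIs. The matching counts of lower genes were 2068 (top 1%), 60 (top 10%), 184 (top 5% without the top 1%), 121 (next 5%), 1275 (no *Mki67* or *Top2a*), 152 (library sizes), 89 (centred), 730 and 128 (minima), 2073 and 13 (folds) and 244 (mitochondrial limit). The G2 and mitosis ratio of 0.34 became 0.29 with a filter of over 2000 genes and under 10% mitochondrial UMIs, 0.043 for the top 1%, 0.42 for the top 10%, 0.45 without the top 1%, 0.26 against all other cells, −0.19 against the next 5%, −0.29 in cells with no *Mki67* or *Top2a*, 0.48 with the mean over cells and from thinned cells, 0.47 with the other library sizes, 0.51 centred, 0.32 without the member with the most of it and 0.45 with the mitochondrial limit. Against the next 5%, *Cenpf* turned to −0.041, *Fam83d* to −0.18, *H2afx* to −0.025, *Ube2c* to −0.060, *Cep55* to −0.071, *Ckap2l* to −0.031, *Nusap1* to −0.28, *Cenpa* to −0.0059 and *Aurka* to −0.10. In cells with no *Mki67* or *Top2a*, *H2afx* turned to −0.17, *Zbtb8b* to −0.46, *Ube2c* to −0.16 and *Cep55* to −0.11. The share with *Mki67* or *Top2a* was 78.9% of members and 57.6% of middle cells thinned to a lower depth, and 97.5% and 73.0% unthinned. Genes per cell at that depth were 2877 and 2988. In all alternatives run, 16 of 31 lists and 20 of 30 named genes kept their sign. The cause of these changes was not tested. No paired analysis was possible because each passage has 1 library. With 1 library, counting error is the only error measured, and spread between cultures is unknown. A UMI total reflects both RNA content and capture, which these counts do not separate.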
